A study of Mus musculus with 4 samples.

Results

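Collagen alpha chains are the polypeptides that wind into collagen, the most abundant structural protein of connective tissue. The 44 chains described here are all genes of the count table whose mouse symbol has the form of a collagen alpha chain (Col, a type number, the letter a and a chain number), out of 45706 genes in all. They were sorted by textbook knowledge into 9 classes: 11 fibrillar chains, 6 basement membrane chains of type IV, 9 chains of fibril-associated collagens (FACIT), 6 beaded filament chains of type VI, 3 short-chain network chains, 1 anchoring fibril chain, 2 multiplexins, 4 transmembrane chains and 2 others. The tissue was the outflow tract, the arterial pole of the embryonic heart from which the roots of the aorta and the pulmonary trunk form, and its RNA was sequenced. The series set Sox17eKO embryos, in which the transcription factor gene Sox17 was deleted by a Cre recombinase driven by an Nfatc1 enhancer that acts in aortic root endothelium, against wild-type (WT) embryos, with the stated aim of finding targets of SOX17. All were C57BL/6 mice at embryonic day 12.5, and each library held the pooled outflow tracts of 10 hearts, with 2 pools of each genotype. The alleles, the sex of the embryos and whether WT embryos carried the Cre are not given in the sources used here. Because a pool is whole tissue and the deletion concerns its endothelium, fewer cells of a type and less RNA per cell cannot be told apart in any value below.

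Alpha chains associate in the endoplasmic reticulum after their prolines and lysines are hydroxylated, and most are trimmed and crosslinked outside the cell. In the developing outflow tract, fibrillar collagens of types I, III and V are made mainly by cushion mesenchyme and by the cells of the arterial wall, and give tissue its tensile strength. Type IV collagen forms the sheet under endothelium and around muscle cells, and FACIT chains coat fibrils without forming fibrils themselves.

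Collagen RNA as a whole took overlapping shares of the libraries of both genotypes. The 44 chains took 0.539% and 0.580% of all gene counts in Sox17eKO replicates 1 and 2, against 0.574% and 0.529% in WT replicates 1 and 2. Their summed counts were 77070 and 126958 in Sox17eKO and 73886 and 42911 in WT. Of the 39 chains with enough reads to be tested, 1 rose in Sox17eKO outflow tracts, the FACIT chain Col12a1, and none fell, where 5.35% of all 16570 genes tested were called, 4.13% higher and 1.22% lower (edgeR adjusted p under 0.05). The median log2 fold change of Sox17eKO over WT was 0.01 over the 39 chains and -0.01 over all genes tested. Fold changes ran from -0.67 to 0.86 among chains, 21 being above and 18 below 0. At an unadjusted p under 0.05 there were 4 chains higher and 4 lower, 8 of 39, where 20.9% of all genes tested passed in either direction. DESeq2 and limma-voom likewise called 1 chain higher and 0 lower. DESeq2 gave no adjusted p to Col4a3, Col4a4, Col6a5, Col7a1, Col8a2, Col13a1, Col15a1 and Col26a1, so it made no call on them. At an unadjusted p under 0.05 DESeq2 had 1 chain higher and 0 lower, where 1901 of all genes tested passed. By limma-voom there were 5 higher and 4 lower, where 3323 passed. For 24 of the 39 chains the 95% interval of the change lay wholly within 1.5-fold in both directions, and these 24 were among the 27 chains with a mean of 10 CPM or more (CPM, counts scaled to library size and TMM factors).

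**Figure D1:**
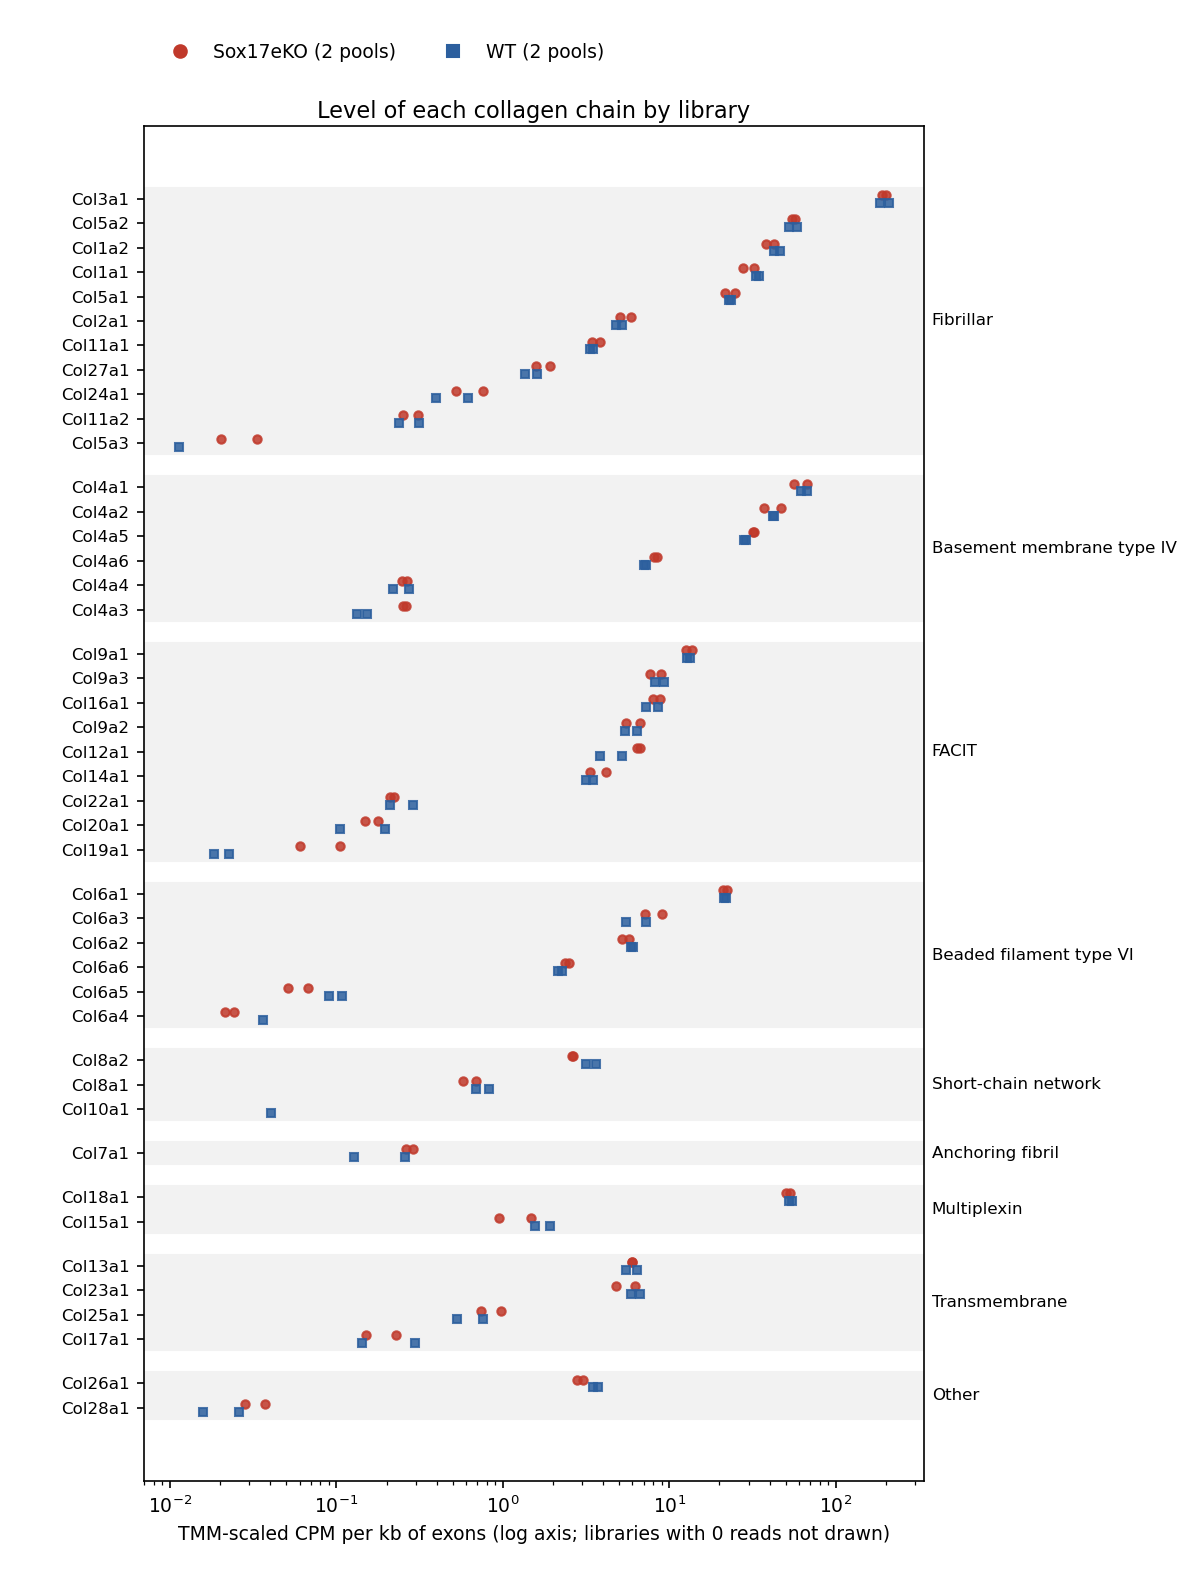
TMM-scaled CPM per kb of exons (log axis) of each collagen chain in each library, grouped by class, with Sox17eKO pools as red circles and WT pools as blue squares. The 2 genotypes lie on top of each other for most chains across a range of levels from 196 CPM per kb for Col3a1 downward, and Col12a1 and Col4a3 have both Sox17eKO points to the right of both WT points.

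Collagen RNA was concentrated in few genes. Levels are compared between genes as CPM per kb of the union of their annotated exons, except where a single transcript is named. The 3 most abundant chains held 47.67% of this length-scaled collagen RNA over the 4 libraries, the top 5 held 62.06%, the top 10 held 84.63% and the top 20 held 95.8%. Col3a1 alone held 29.81% in Sox17eKO and 29.63% in WT. By this measure Col4a1, Col5a2 and Col18a1 came after Col3a1, at 62.77, 55.7 and 52.64 CPM per kb over all libraries. The order depended on the length used, as Col1a2 has 12426 exonic bases but 5348 in a single transcript. Per kb of a single transcript Col1a2 averaged 93.55 CPM in Sox17eKO and 103.1 in WT. That was above Col5a2 (80.59 and 80.7), Col4a1 (69.25 and 72.41) and Col18a1 (64.85 and 67.26). Per kb of the union of exons, the ranges of neighbours among Col4a1, Col5a2 and Col18a1 over the 4 libraries overlapped. Col4a1 ran from 55.9 to 66.9, Col5a2 from 52.6 to 58.9 and Col18a1 from 49.9 to 54.5 CPM per kb.

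By class, fibrillar chains made up 54.29% ± 0.516 of length-scaled collagen RNA in Sox17eKO and 54.93% ± 1.819 in WT (SD, n = 2 pools each). Type IV chains made up 21.93% ± 1.011 in Sox17eKO and 21.47% ± 1.124 in WT. These 2 classes together carried most of the collagen RNA of this tissue, and their shares overlapped between the genotypes. Multiplexins followed with 8.053% ± 0.0426 in Sox17eKO and 8.352% ± 0.372 in WT. FACIT chains held 7.095% ± 0.504 in Sox17eKO and 6.606% ± 0.138 in WT. Type VI chains held 5.744% ± 0.0751 in Sox17eKO and 5.466% ± 0.0145 in WT, and all other classes held 2.888% ± 0.0228 in Sox17eKO and 3.178% ± 0.171 in WT. Both Sox17eKO pools were above both WT pools for FACIT and type VI and below both for multiplexins and the remaining classes, by 0.489, 0.278, -0.299 and -0.29 percentage points. With 2 pools against 2 an exact two-sided permutation test cannot give a p below 0.333, so these differences are given as values with no test. The multiplexin separation, 8.083% and 8.023% in Sox17eKO against 8.089% and 8.616% in WT, was lost without division by length (6.707% and 6.659% in Sox17eKO, 6.672% and 7.229% in WT) and with the length of one transcript (6.953% and 6.945% in Sox17eKO, 6.905% and 7.459% in WT). The sign for the fibrillar class, -0.641 points, turned to 0.645 without WT replicate 1, and that for type IV, 0.463 points, turned to -0.255 without Sox17eKO replicate 2 and to -0.335 without WT replicate 1. The FACIT difference was 0.133 points without Sox17eKO replicate 1, and the multiplexin difference was -0.036 points without WT replicate 2. Much of the FACIT and type VI differences lay in a single chain of each class. Col12a1 averaged 0.9904% of length-scaled collagen RNA in Sox17eKO and 0.6778% in WT. Col6a3 averaged 1.226% in Sox17eKO and 0.9637% in WT. The separations of these 2 classes are therefore not shown for their other chains.

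**Figure D2:**
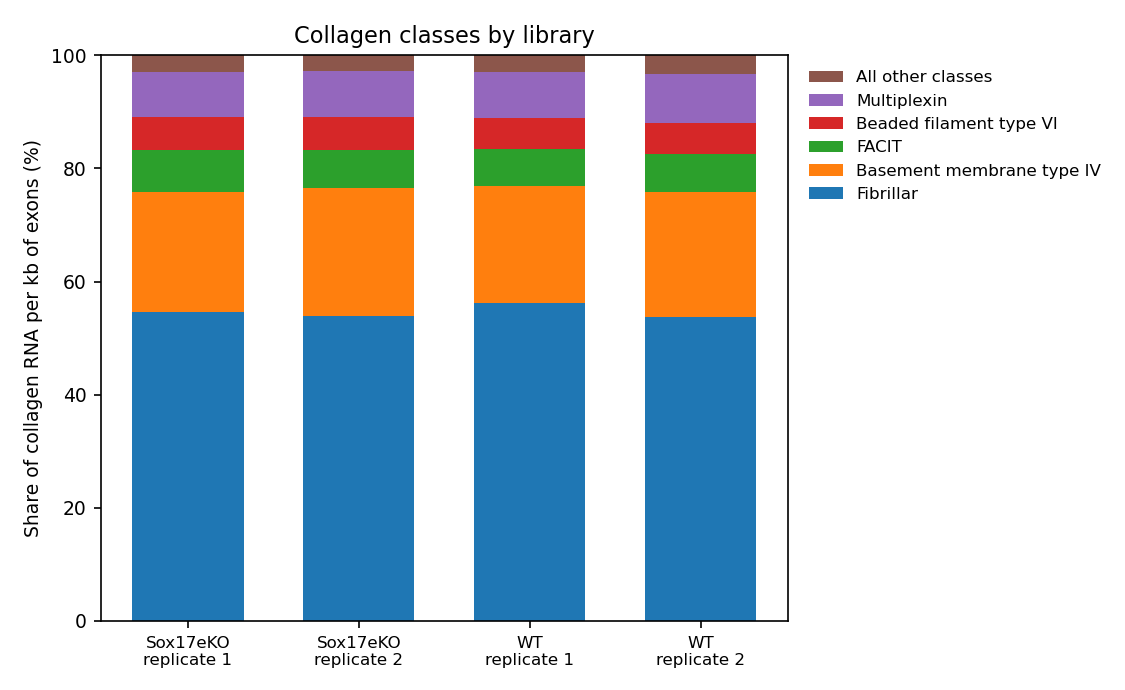
Share of length-scaled collagen RNA (percent, linear axis from 0 to 100) held by each class in each library, Sox17eKO pools on the left and WT pools on the right. The fibrillar share lies between 53.65% and 56.22% and the type IV share between 20.67% and 22.64% in the 4 libraries.

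Fibrillar chains, which build the banded fibrils of the arterial wall and valves, showed no change past the test. Of 11 members 10 were tested, 6 fitted above and 4 below 0, with a median log2 fold change of 0.03 and a range of -0.18 to 0.31. Col3a1, which forms homotrimers in distensible tissues, had 1871 and 1970.2 CPM in the Sox17eKO replicates, against 2038 and 1821 CPM in the WT replicates. The 2 genotypes overlapped, the log2 fold change was -0.01 ± 0.088 (standard error, SE; adjusted p = 0.976 by edgeR), and the 95% interval ran from -0.19 to 0.18. Col3a1 (ENSMUSG00000026043) lies on the plus strand of chromosome 1 from 45311538 to 45349706 of mm10, 24614 bases from the facing end of Col5a2. Its upstream sequence is shown because it is the chain with the most RNA. Capitals mark TATAAA, a match to the letters of a TATA box, and ACAATTGT, which holds the SOX core letters ACAAT once on each strand, the matches overlapping (RefSeq, GRCm38.p6, chr1:45311288-45311537, plus strand, ending at the transcription start).
Col3a1 upstream: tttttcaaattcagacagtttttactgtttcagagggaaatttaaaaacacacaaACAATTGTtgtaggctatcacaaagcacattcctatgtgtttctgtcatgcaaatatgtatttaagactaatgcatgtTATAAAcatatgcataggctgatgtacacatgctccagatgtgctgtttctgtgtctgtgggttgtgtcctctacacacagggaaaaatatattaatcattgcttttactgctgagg

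Of the 44 chains, 35 had such a RefSeq window, 38 windows in all, and the 250 bases before each start were searched on both strands. TATAAA was in 13.2% of collagen windows and 12.4% of all 32851 windows, CCAAT in 34.2% and 33.8%, and GGGCGG, the GC box, in 57.9% and 32.7%. ACAAT was in 5.26% of collagen windows, those of Col3a1 and Col28a1, and in 27.7% of all windows. These matches describe letters in a window and do not show binding of a factor. Col12a1, Col14a1, Col1a1, Col22a1, Col26a1, Col2a1, Col4a3, Col5a2 and Col9a3 had no window of their own in the table.

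The chains of type I collagen, the main load-bearing fibril of skin, bone and vessel wall, were both fitted slightly lower and neither passed the test. Without Sox17eKO replicate 1 their log2 fold changes were -0.079 for Col1a1 and -0.068 for Col1a2, and without WT replicate 1 that of Col1a2 was -0.075. Without Sox17eKO replicate 2 the changes were larger, -0.30 for Col1a1 and -0.22 for Col1a2. With the trend on gene length removed they were -0.22 and -0.29 (edgeR adjusted p = 0.160 and 0.0305), so that Col1a2 then passed. Col1a1 had 181 and 210.4 CPM in Sox17eKO, against 218 and 226 CPM in WT. Both Sox17eKO values lay below both WT values, with a log2 fold change of -0.18 ± 0.084 (SE; adjusted p = 0.216 by edgeR). Its partner Col1a2, which joins Col1a1 in the same helix, had 475 and 526 CPM in Sox17eKO, against 574 and 528 CPM in WT. The Col1a2 pools did not overlap either, though Sox17eKO replicate 2 and WT replicate 2 were close, and the log2 fold change was -0.14 ± 0.082 (SE; adjusted p = 0.349 by edgeR). The log2 ratio of Col1a1 to Col1a2 per kb was -0.47 and -0.40 in Sox17eKO and -0.48 and -0.30 in WT, so the balance of the 2 chains overlapped between genotypes. Col3a1 relative to Col1a2 was higher in both Sox17eKO pools, at a log2 ratio of 2.32 and 2.25, against 2.17 and 2.13 in WT, a difference of 0.14.

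The chains of type V collagen, which sits inside type I fibrils and limits their width, had nearly equal levels in the 2 genotypes. Col5a1 had 183 and 212 CPM in Sox17eKO and 195 and 198 CPM in WT, and Col5a2 had 524 and 543 CPM in Sox17eKO and 564 and 505 CPM in WT. Their log2 fold changes were 0.01 and 0.00 (-0.0025), and the log2 ratio of Col5a1 to Col5a2 differed by 0.0035 between the genotypes. Col2a1, the cartilage fibril chain also made in embryonic cushions, had 46.8 and 54.2 CPM in Sox17eKO and 48.1 and 44.2 CPM in WT, with a log2 fold change of 0.13. Its fibril partner Col11a1 stood at 0.09, Col11a2 at 0.05, Col27a1 at 0.24 and Col24a1 at 0.31, none past the test. Col5a3, a low chain that was not tested, had 2 and 5 reads in Sox17eKO and 1 and 0 in WT.

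Type IV chains, the sheet-forming collagens of basement membranes, did not change past the test. All 6 were tested, 4 fitted above and 2 below 0, with a median log2 fold change of 0.13. Each pair is encoded head to head, so that its 2 genes start near each other and run in opposite directions. The chains of the ubiquitous pair overlapped between the genotypes. Col4a1 had 417 and 499 CPM in Sox17eKO and 460 and 498 CPM in WT (log2 fold change -0.06, standard error 0.089, edgeR adjusted p = 0.744). Col4a2 had 246 and 311 CPM in Sox17eKO and 276 and 281 CPM in WT (log2 fold change -0.0004, standard error 0.095, edgeR adjusted p = 0.999). For both chains Sox17eKO replicate 1 was the lowest of the 4 libraries and Sox17eKO replicate 2 the highest. The log2 ratio of Col4a1 to Col4a2 was 0.59 and 0.51 in Sox17eKO and 0.56 and 0.65 in WT, and the 5′ ends of the 2 genes share 22 bases on chromosome 8.

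The X-linked pair stood higher in both Sox17eKO pools without passing the test. Col4a5, a chain that replaces the ubiquitous ones in part of the body's basement membranes and is mutated in human Alport syndrome, had 213 and 217 CPM in Sox17eKO, against 193 and 189 CPM in WT. Its log2 fold change was 0.17 ± 0.075 (SE; adjusted p = 0.190 by edgeR). Col4a6, found with Col4a5 around smooth muscle, had 64.3 and 66.95 CPM in Sox17eKO and 57.5 and 56.2 CPM in WT, with a log2 fold change of 0.21 ± 0.080 (SE; adjusted p = 0.142 by edgeR). These are long genes of 213850 and 308674 bases, and with the length trend removed the changes were 0.057 for Col4a5 and 0.043 for Col4a6 (edgeR adjusted p = 0.776 and 0.869). The 2 chains kept a near constant proportion: the log2 ratio of Col4a5 to Col4a6 was 1.98 and 1.94 in Sox17eKO and 1.99 and 1.99 in WT. Relative to Col4a1, Col4a5 was at a log2 ratio of -0.82 and -1.05 in Sox17eKO and -1.10 and -1.25 in WT, a difference of 0.24. Xist, the RNA that coats the inactive X chromosome, stood at 466 and 391 CPM in Sox17eKO and 245 and 266 CPM in WT (edgeR adjusted p = 8.53e-05). The Y-linked genes Ddx3y, Uty, Eif2s3y and Kdm5d had log2 fold changes of -0.32, -0.21, -0.41 and 0.046. None of these was called (edgeR adjusted p = 0.370, 0.369, 0.148 and 0.925). The part of pool sex in the values of Col4a5 and Col4a6 was not tested. The start sites are 1308 bases apart, and the sequence before each is printed because the 2 chains kept that proportion. Capitals mark CCAAT before Col4a5 and CCGCCC, the GC box read on the opposite strand, before Col4a6 (RefSeq, GRCm38.p6, chrX:141475169-141475384, plus strand, ending 34 bases before the RefSeq start where annotated exons begin, and chrX:141474077-141474326, minus strand).
Col4a5 upstream: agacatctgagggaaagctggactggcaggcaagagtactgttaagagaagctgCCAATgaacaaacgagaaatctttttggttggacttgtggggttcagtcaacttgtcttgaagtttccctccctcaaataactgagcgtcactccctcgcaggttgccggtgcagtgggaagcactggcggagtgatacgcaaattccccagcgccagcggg
Col4a6 upstream: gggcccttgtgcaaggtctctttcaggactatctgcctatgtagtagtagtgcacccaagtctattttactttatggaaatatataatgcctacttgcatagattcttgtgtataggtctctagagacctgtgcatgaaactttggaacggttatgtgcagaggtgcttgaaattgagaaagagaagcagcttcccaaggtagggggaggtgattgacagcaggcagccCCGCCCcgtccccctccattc

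The third pair was of low abundance and uneven. Col4a3, a chain of mature kidney and lung basement membranes, had 2.62 and 2.50 CPM in Sox17eKO, against 1.32 and 1.52 CPM in WT. These levels rest on 38 and 55 reads in Sox17eKO and 17 and 12 reads in WT. Both Sox17eKO pools were higher, by a log2 fold change of 0.86 ± 0.34 (SE), the highest of any tested chain, and did not pass the test (edgeR adjusted p = 0.144). Col4a4, its partner in the same helix, had 2.83 and 2.64 CPM in Sox17eKO and 2.33 and 2.91 CPM in WT, with a log2 fold change of 0.08 ± 0.29 (SE; adjusted p = 0.909 by edgeR). Per kb the log2 ratio of Col4a3 to Col4a4 was -0.02 and 0.01 in Sox17eKO and -0.73 and -0.85 in WT, a difference of 0.79. Col4a3 shares 563 exonic bases with C430014B12Rik on the opposite strand, which had 6 and 11 reads in Sox17eKO and 7 and 1 in WT. The strand setting of the counting is not given. Whether reads on the shared bases were counted for Col4a3 or set aside as ambiguous is therefore not known. The whole stretch between the starts of the 2 genes is 71 bases and is printed because it lies before both members of the pair. It holds none of the 4 motifs searched (RefSeq, GRCm38.p6, chr1:82586850-82586920, minus strand, read towards Col4a4).
Col4a4 to Col4a3 interval: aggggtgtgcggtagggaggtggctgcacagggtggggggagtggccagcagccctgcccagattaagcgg

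FACIT chains bind to the surface of fibrils and link them to their surroundings, and this class held the chain that rose. Col12a1 encodes the chain of type XII collagen, found along type I fibrils in tendon, ligament and valve. It had 96.8 and 101 CPM in Sox17eKO, against 78.9 and 58.3 CPM in WT. Both Sox17eKO pools lay above both WT pools, and WT replicate 2 was the lowest of the 4. The log2 fold change was 0.52 ± 0.12 (SE) and a 95% interval of 0.26 to 0.77, a fitted level of 143.1% of WT (edgeR adjusted p = 0.0279). The levels rest on 1404 and 2223 reads in Sox17eKO and 1017 and 461 in WT. Col12a1 (ENSMUSG00000032332) lies on the minus strand of chromosome 9 from 79598991 to 79718831 of mm10 and has 66 exon blocks and 15228 exonic bases, the longest of any chain. The call was lost without WT replicate 2 (0.33, edgeR adjusted p = 0.134), without Sox17eKO replicate 1 (0.55, 0.105), without Sox17eKO replicate 2 (0.48, 0.131) and with the trend on gene length removed (0.29, 0.124), while the sign stayed positive in all of these.

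Col12a1 was higher relative to Col1a2 and Col14a1, in ratios that hold the same Col12a1 reads and are no separate support for its call. Its log2 ratio per kb to Col1a2, the fibril chain it accompanies, was -2.59 and -2.67 in Sox17eKO and -3.16 and -3.47 in WT, a difference of 0.69. Col1a2 itself was fitted at a log2 fold change of -0.14. Against Col14a1, the related FACIT chain of type XIV collagen, the log2 ratio was 0.92 and 0.67 in Sox17eKO and 0.58 and 0.29 in WT, a difference of 0.37. Col14a1 itself stood at 0.19 (edgeR adjusted p = 0.411). Markers of cushion mesenchyme and fibroblasts, cells known to make type XII collagen, summed to 1886 and 1689 CPM in Sox17eKO and 1754 and 1553 CPM in WT over 6 genes. Postn supplied 1178.2 and 1050.4 CPM of that in Sox17eKO and 1057.5 and 920.1 CPM in WT. By gene, 2 were fitted above and 4 below 0, with a median log2 fold change of -0.146. Of those 6, Pdgfra rose (log2 fold change 0.32) and Dcn fell (-0.32) by edgeR, while DESeq2 called 1 higher and 0 lower and limma-voom called 0. With the length trend removed Pdgfra was at 0.19 and no longer passed, and Dcn was at -0.36 and did (edgeR adjusted p = 0.217 and 0.0282). The part of such cells in the Col12a1 value was not tested.

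The other FACIT chains did not change past the test. Of 9 members 8 were tested, 6 fitted above and 2 below 0, with a median of 0.07. Col9a1, a cartilage chain that was the most abundant FACIT chain per kb here, had 69.0 and 63.6 CPM in Sox17eKO and 64.7 and 67.1 CPM in WT (log2 fold change 0.01, standard error 0.082, edgeR adjusted p = 0.964). Col9a2 stood at 0.07, Col9a3 at -0.09 and Col16a1 at 0.07, so the 3 chains of type IX were all fitted near 0. Col9a3 shares 234 exonic bases with Tcfl5 on the other strand. Col20a1 was at 0.21 and Col22a1 at -0.17, both below 3 CPM in every library. Col19a1, which was too low to test, had 6 and 16 reads in Sox17eKO and 2 and 1 in WT, or 0.414 and 0.728 CPM in Sox17eKO and 0.155 and 0.127 CPM in WT. The cartilage markers beside these chains summed to 298 and 256 CPM in Sox17eKO and 262 and 245 CPM in WT over 7 genes. Hapln1, also made by cushions, supplied 189 and 154 CPM of that in Sox17eKO and 172 and 171 CPM in WT, and the defining cartilage gene Matn1 was at 0 in all libraries but Sox17eKO replicate 1.

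**Figure D3:**
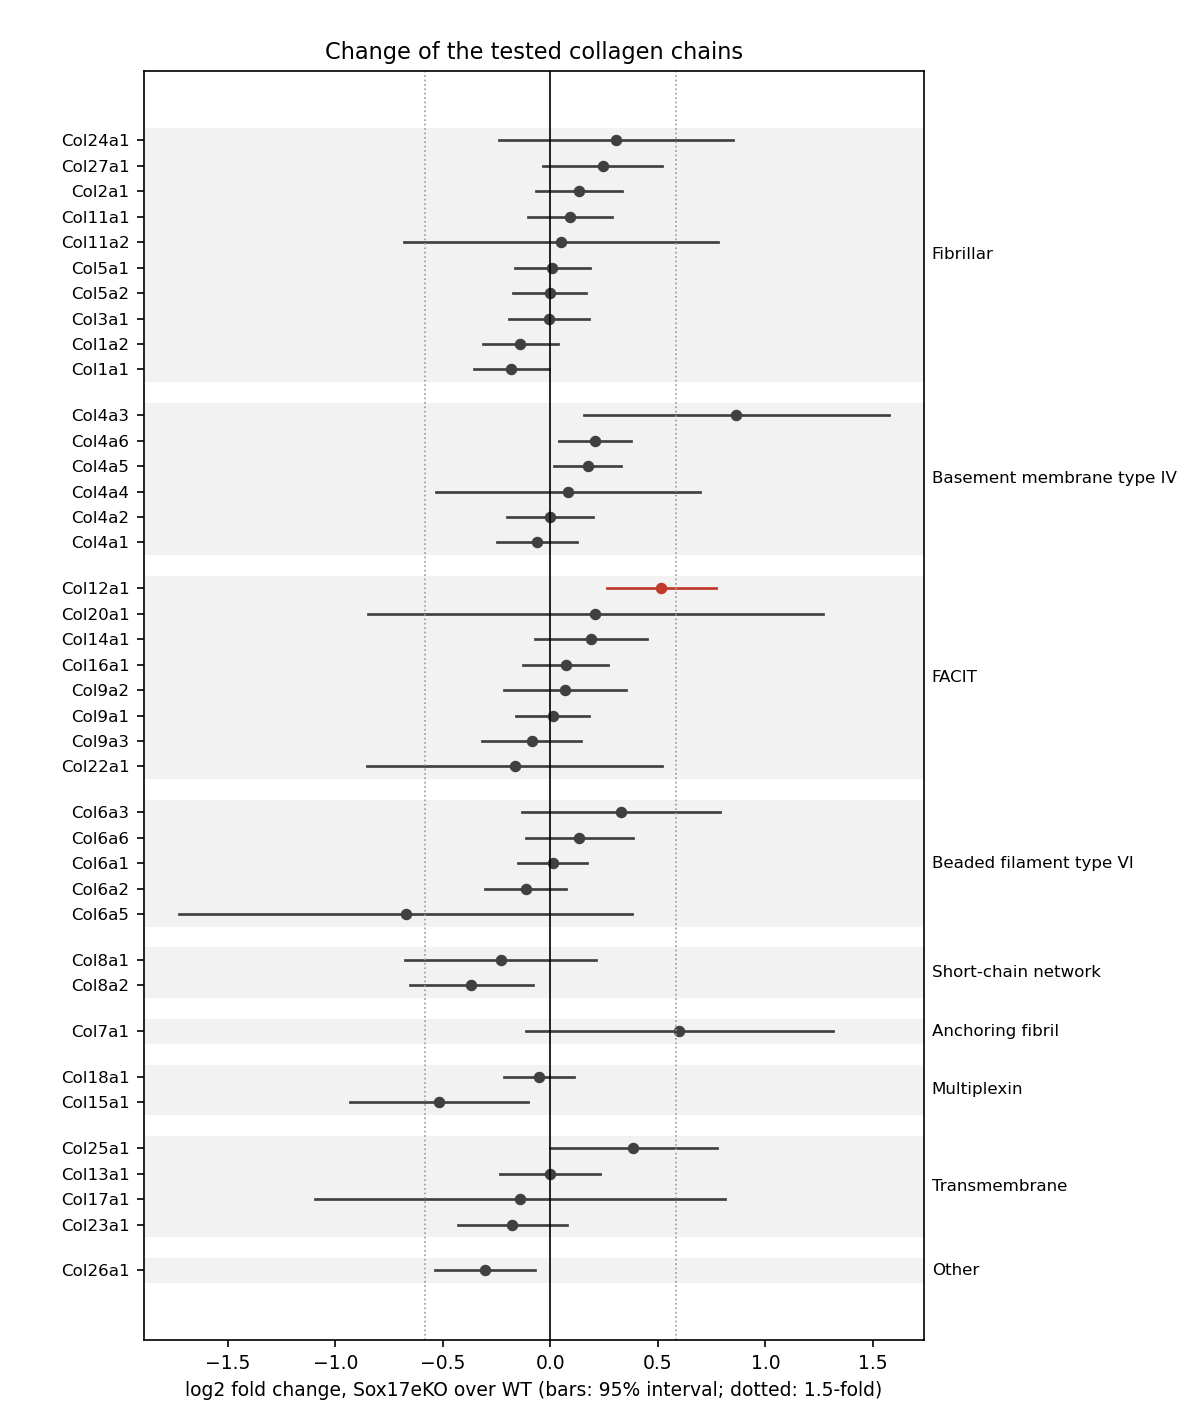
Log2 fold change of Sox17eKO over WT for the 39 tested chains, by class and ordered within a class, with bars for the 95% interval and dotted lines at 1.5-fold. Col12a1 (red) is the chain past the adjusted threshold, and abundant chains such as Col3a1, Col5a2 and Col4a1 have intervals inside the dotted lines.

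Type VI chains, which form beaded filaments at the border between cells and matrix, did not change past the test. Of 6 members 5 were tested, with 3 above and 2 below 0 and a median log2 fold change of 0.01. Col6a1 had 92.1 and 97.6 CPM in Sox17eKO and 93.1 and 95.6 CPM in WT (log2 fold change 0.01, standard error 0.077, edgeR adjusted p = 0.961). Col6a2, which shares a helix with Col6a1 and lies on the same strand 85161 bases away on chromosome 10, had 43.5 and 47.9 CPM in Sox17eKO and 49.3 and 50.1 CPM in WT. Its log2 fold change was -0.12 ± 0.090 (SE; adjusted p = 0.496 by edgeR). The log2 ratio of Col6a1 to Col6a2 was 2.01 and 1.95 in Sox17eKO and 1.84 and 1.86 in WT, a difference of 0.13 with no overlap. Col6a3, the third chain of that helix, had 85.1 and 108 CPM in Sox17eKO and 87.2 and 66.0 CPM in WT. Its pools overlapped and its log2 fold change was 0.33 (SE 0.18; adjusted p = 0.378 by edgeR). That change was 0.14 without Sox17eKO replicate 2, 0.15 without WT replicate 2, 0.56 without WT replicate 1 and 0.16 with the length trend removed, and it was called with no filter on low counts (edgeR adjusted p = 0.00439). Col6a5, an alternative chain, was very low, with 7 and 14 reads in Sox17eKO and 11 and 8 in WT, and had the lowest fitted value of any chain, -0.67 (SE 0.50; adjusted p = 0.475 by edgeR). Col6a6 stood at 0.14. Col6a4 was not tested, with 3 and 4 reads in Sox17eKO and 4 and 0 in WT.

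The multiplexins, which carry antiangiogenic fragments at their ends and lie in basement membranes, were a pair of very unequal level. Col18a1, whose end fragment is endostatin, had 350.4 and 375 CPM in Sox17eKO and 370.1 and 383 CPM in WT (log2 fold change -0.05, standard error 0.078, edgeR adjusted p = 0.761). Col15a1, enriched in basement membranes of vessels and muscle, had 6.00 and 9.32 CPM in Sox17eKO, against 12.3 and 9.87 CPM in WT. Both Sox17eKO pools were lower, with a log2 fold change of -0.52 ± 0.20 (SE), and did not pass the test (edgeR adjusted p = 0.135). Sox17eKO replicate 1 was the lowest of the 4. Without it the change was -0.27 (edgeR adjusted p = 0.567), without WT replicate 1 it was -0.33 (0.496), and without Sox17eKO replicate 2 it was -0.90 (0.0208). The endothelial markers Pecam1, Cdh5, Kdr, Tek and Emcn summed to 650.0 and 696 CPM in Sox17eKO and 688 and 691 CPM in WT, and none of the 5 was called.

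Among the remaining classes, no chain passed the test. Col8a2, a short-chain network collagen of subendothelial matrix, had 11.9 and 11.6 CPM in Sox17eKO, against 14.3 and 16.2 CPM in WT (log2 fold change -0.37, standard error 0.14, edgeR adjusted p = 0.123). Its partner Col8a1 was at -0.23, and the log2 ratio of Col8a1 to Col8a2 overlapped between the genotypes. Col10a1, the chain of hypertrophic cartilage, had 0 reads in both Sox17eKO libraries and in WT replicate 1 and 1 read in WT replicate 2. A count of 0 allows up to 0.207 and 0.136 CPM in Sox17eKO replicates 1 and 2 and 0.233 CPM in WT replicate 1 (3 counts per library, counting error only). Col7a1, which makes the anchoring fibrils under epithelia, had 2.69 and 2.96 CPM in Sox17eKO, against 1.32 and 2.66 CPM in WT (log2 fold change 0.60, standard error 0.34, edgeR adjusted p = 0.328). WT replicate 1, with 17 reads, was the lowest of the 4, and without it the fitted change was 0.10.

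Of the transmembrane collagens, which stay anchored in the plasma membrane, Col13a1 overlapped between the genotypes, with 27.4 and 27.5 CPM in Sox17eKO and 29.5 and 25.2 CPM in WT (log2 fold change -0.0024, standard error 0.11, edgeR adjusted p = 0.994). Col23a1 stood at -0.18, Col17a1 at -0.14 and Col25a1 at 0.39, with pools of the 2 genotypes overlapping for all 4 chains. Col26a1, which falls outside the other classes, had 24.9 and 22.7 CPM in Sox17eKO, against 28.3 and 30.5 CPM in WT. Both Sox17eKO pools were lower, with a log2 fold change of -0.30 ± 0.11 (SE), and did not pass the test (edgeR adjusted p = 0.119). Col28a1 was not tested, with 2 and 4 reads in Sox17eKO and 1 and 1 in WT.

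Across the 39 tested chains, both Sox17eKO pools lay above both WT pools for 6 chains and below both for 8, where 26.5% and 26.2% of all genes tested did so, and the pools overlapped for 25. Among 17 ratios between chains that share a helix, a class or a fibril, 6 were higher in both Sox17eKO pools, 2 were lower and 9 overlapped. With 2 pools against 2, a share of 0.333 of the 6 possible arrangements separates the pools in either direction. In these libraries single genes separated more often, at the 26.5% and 26.2% above, and the share among ratios of other genes was not computed. Ratios that have Col12a1, Col1a2 or Col4a5 in common are not separate from each other. The ratios are descriptions with no test.

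**Figure D4:**
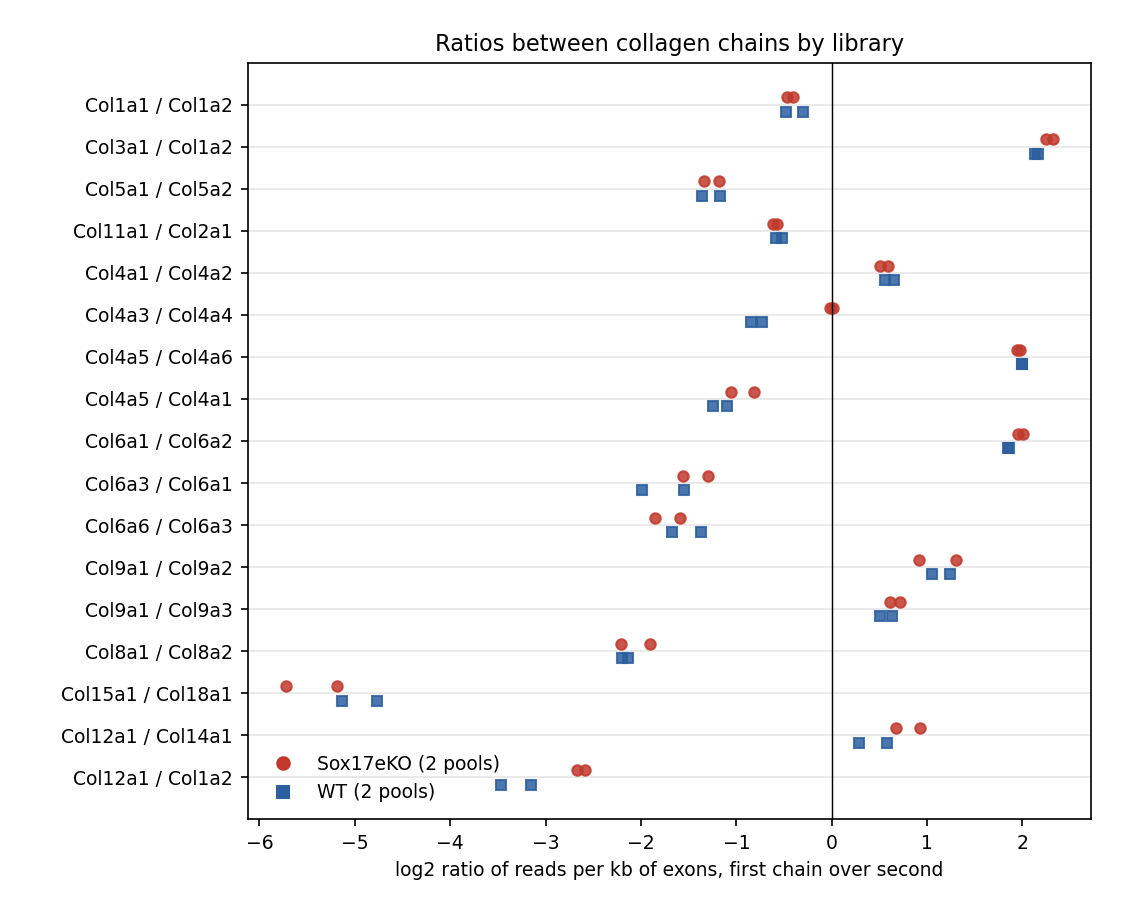
Log2 ratio of 2 chains per kb of exons in each library, Sox17eKO pools as red circles above WT pools as blue squares. The ratios of Col1a1 to Col1a2 and Col4a1 to Col4a2 overlap between genotypes, while Col4a3 to Col4a4 and Col12a1 to Col1a2 lie apart by 0.79 and 0.69.

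Collagen genes are long. Their median span was 114404 bases, against 25432 for all 13361 protein-coding genes tested, and their median exonic length was 7833 bases, against 4584. In these libraries the change of a gene ran with its length: the median log2 fold change of protein-coding genes was -0.14 in the decile of shortest span (median 3.01 kb) and 0.16 in the longest (228 kb). Spearman's rho between log2 fold change and span was 0.214 over the 39 chains and 0.373 over protein-coding genes, and with exonic length it was 0.387 and 0.459. These are descriptions across genes of the same libraries. With a smooth trend on exonic length and span removed from each library, the median of the chains was -0.06, Col12a1 no longer passed, and Col1a2 fell (log2 fold change -0.29, edgeR adjusted p = 0.0305), where 0.531% of genes tested were then called lower. Reads that the counting assigned to no feature took 34.1% and 29.5% of uniquely placed reads in Sox17eKO and 22.2% and 20.4% in WT. As the strand setting is not given, whether they all lay outside annotated exons is not known. The part of these reads in the values of long genes was not tested.

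**Figure D5:**
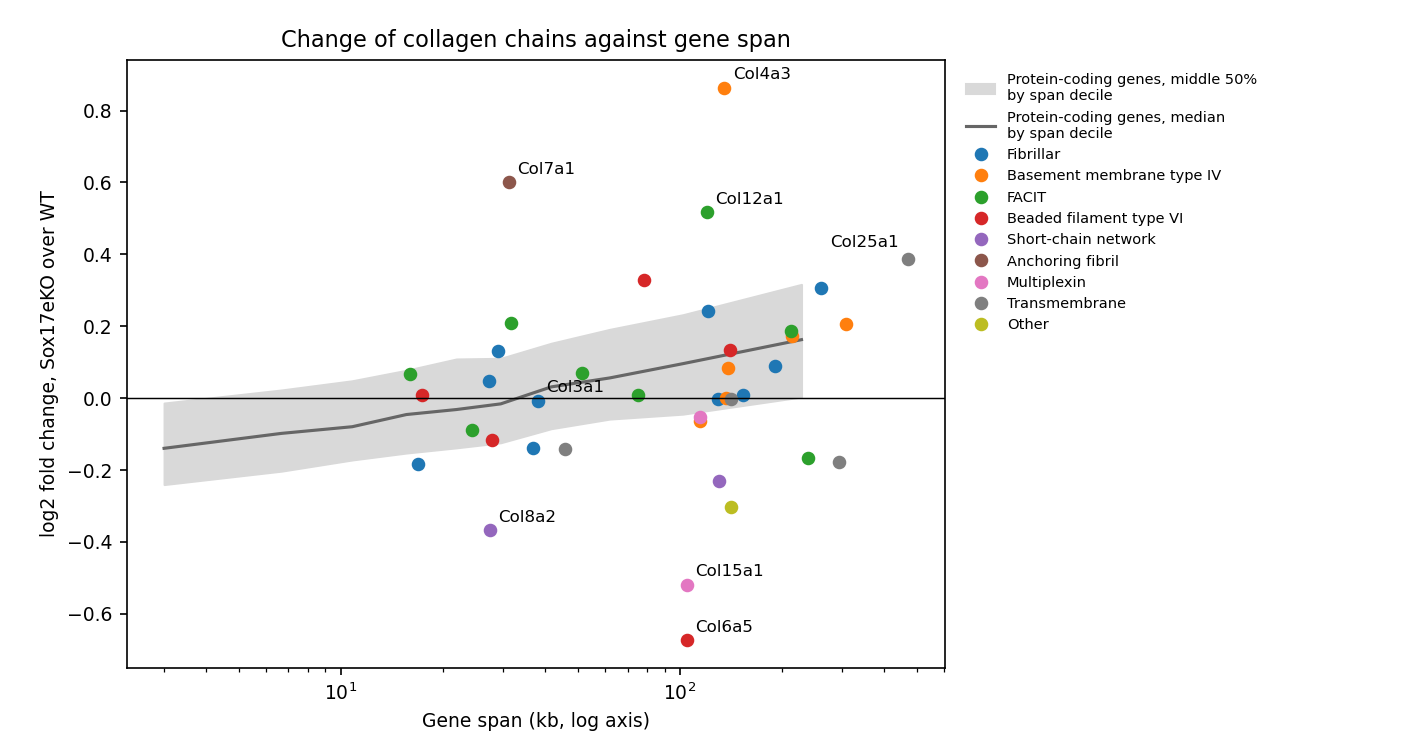
Log2 fold change of Sox17eKO over WT against gene span (kb, log axis) for the 39 tested chains coloured by class, with the median and the middle 50% of protein-coding genes in deciles of span as a line and grey band. The decile medians climb from -0.14 to 0.16, and Col12a1, Col4a3 and Col7a1 lie above the band while Col8a2, Col15a1 and Col6a5 lie below it.

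Genes that make, trim, bind and degrade collagen were followed in 5 lists, of which 1 member passed the test. Itga1, the integrin chain that binds collagen IV and I, rose: it had 129.8 and 131 CPM in Sox17eKO and 107 and 107 CPM in WT (log2 fold change 0.29, standard error 0.074, edgeR adjusted p = 0.0270). The call on Itga1 ended with any library left out (0.28 to 0.30, edgeR adjusted p = 0.0751 to 0.171), and with the length trend removed its change was 0.015. It was the 1 called of 8 tested members among 10 collagen receptors, whose median was -0.03. Beside the 5.35% of all genes called and the 20.9% at an unadjusted p under 0.05, none of 20 modification and folding enzymes and chaperones was called (median -0.08, 3 at an unadjusted p under 0.05), none of 7 tested of 8 processing enzymes (median -0.04, 0), none of 9 tested of 13 breakdown genes and inhibitors (median -0.17, 2), and none of 7 basement membrane partners (median 0.03, 2). DESeq2 and limma-voom called the same numbers in these lists. The members with the smallest p in those 4 lists, chosen after their values were seen, were P3h2, a prolyl hydroxylase (0.29, edgeR adjusted p = 0.132), Adamts3, a procollagen peptidase (0.40, 0.244), Timp1, a protease inhibitor (-0.36, 0.124), and Tinagl1, a basement membrane glycoprotein (-0.24, 0.160).

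The libraries held 14306550 and 21883956 gene counts in Sox17eKO and 12880081 and 8113463 in WT, so WT values carry more counting error. Sox17 itself had 2.76 and 2.82 CPM in Sox17eKO and 6.05 and 6.83 CPM in WT (log2 fold change -1.19, edgeR adjusted p = 0.00574). Markers of the cell types that a pool could hold gave these sums beside the collagen values, with calls by edgeR where 4.13% of all genes were called higher and 1.22% lower. Smooth muscle genes summed to 1704 and 1648 CPM in Sox17eKO and 1860.0 and 1892 CPM in WT, with 1 of 4 called lower (Cnn1). Epicardial and mesothelial genes summed to 308 and 279 CPM in Sox17eKO and 334 and 360 CPM in WT, with 2 of 6 called lower (Upk3b and Lrrn4). Cardiomyocyte genes summed to 15620 and 17300 CPM in Sox17eKO and 14930 and 15460 CPM in WT. Myh7 supplied 7538.1 and 8968.8 CPM of that in Sox17eKO and 7049.1 and 7156.2 CPM in WT. By gene, 3 cardiomyocyte genes were fitted above and 2 below 0, with 1 of 5 called lower (Nppa), and DESeq2 also called 1 of them higher. Of 6 tested cartilage genes, Sox5 and Sox6 were called higher by edgeR, 0 by DESeq2 and 0 by limma-voom, and with the length trend removed their log2 fold changes were 0.14 and 0.02 (edgeR adjusted p = 0.587 and 0.942). Neural crest and Schwann precursor genes stayed between 31.1 and 37.4 CPM in all libraries with none called, erythroid genes summed to 1519 and 2077 CPM in Sox17eKO and 2355 and 3122 CPM in WT with 1 of 6 called lower (Hbb-y), and liver genes were uneven between pools, at 5.38 and 123 CPM in Sox17eKO and 71.3 and 11.5 CPM in WT. With the length trend removed Cnn1 (-0.27), Nppa (-0.17) and Hbb-y (-0.37) no longer passed (edgeR adjusted p = 0.0750, 0.209 and 0.140). Upk3b (-0.30) and Lrrn4 (-0.49) still did (0.0497 and 0.0296). For smooth muscle, epicardial, cardiomyocyte and erythroid genes, DESeq2 called 1, 1, 1 and 0 lower and limma-voom 1, 2, 1 and 2. The part of cell composition in the collagen values was not tested.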

How the data were processed

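RNA counts per gene came from 4 libraries, 2 Sox17eKO and 2 WT, and groups and replicate numbers came from the sample titles. Total RNA was extracted with TRIzol and made into strand-specific Illumina libraries, per the labels' protocols. The deposited values are whole read counts for each Ensembl gene, which the authors had not normalized. TopHat2, HTSeq and mm10 are named in the submitters' processing notes, and versions, annotation release and strand setting are not given in the sources used here.

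Of 45706 genes, 45143 had a symbol in GENCODE M21 (annotated on GRCm38, another name of mm10), which also gave coordinates and lengths. Library sizes and tests did not use the 5 summary rows of HTSeq. Reads assigned to no feature took 20.4% to 34.1% and ambiguous reads 3.38% to 6.22% of uniquely placed reads. Non-unique alignments were 72.5% to 79.0% of the table. Promoter windows came from RefSeq (GRCm38.p6), and bases inside annotated exons were not printed.

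Genotypes were compared with the quasi-likelihood test of edgeR 4.0.16 (R 4.3.3, robust, prior count 0.125) with TMM factors and genotype alone, on the 16570 genes passing filterByExpr, called at a Benjamini-Hochberg adjusted p under 0.05 over all of them. It had 2 residual degrees of freedom and a biological coefficient of variation of 0.0791. Standard errors (SE) were computed as |log2 fold change| over the root of the F statistic. The replicates of a genotype were counted separately, since their counts differed beyond sampling noise (chi-square divided by its degrees of freedom 6.70 in Sox17eKO and 4.93 in WT). In simulated counts for this comparison (16284 genes), a change of 1.25-fold was called in 16% of genes, of 1.5-fold in 64%, of 2-fold in 78% and of 4-fold in 98%, and 2.29% of calls were false. The simulated counts followed the dispersion fitted as a trend on level, without dispersion of single genes and without the length trend of these libraries. The rates of true and false calls do not cover either of these.

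The collagen chains, classes, companion lists and marker lists were chosen with earlier results of these data known. Chains given with every library's value are the called ones, the most abundant of each class per kb, those of type I, Col3a1, the 6 of type IV, the 3 most abundant tested of type VI, and the largest rises and falls, 2 of each. The rule also named up to 4 called members of each companion list. Col5a1, Col5a2 and Col2a1 were given with every library's value after their values were seen, and the other chains are given more briefly. Alternatives were DESeq2 1.42.0, limma-voom (limma 3.58.1), library-size scaling, other filters, no robust option, the replicate number as a block, leaving out each library, protein-coding genes only, and a smooth length trend removed from each library (mgcv 1.9.3). Removal of the length and GC trends together, and the length of a single transcript in class shares and chain levels, were added after seeing the data. Intervals cover counting and pool error as fitted, and PCR reads that carry no molecular identifier are not independent.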

Additional observations from a re-analysis of the deposited data

Results flagged for a closer look

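Reads that the counting assigned to no feature are not part of the comparison of chains, and their share in Sox17eKO was above the level in WT. It averaged 31.8% ± 3.27 of uniquely placed reads in Sox17eKO and 21.3% ± 1.28 in WT (SD, n = 2 pools each), and both Sox17eKO libraries lay above both WT libraries. With 2 pools against 2, an exact two-sided permutation test cannot give a p below 0.333.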

How the results depend on the processing

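With 1 chain called higher and 0 lower, the counts were the same under DESeq2, library-size scaling, limma-voom, a mean of at least 1 CPM, no robust option and protein-coding genes only. For DESeq2 this leaves out the chains named above that it gave no adjusted p. With no filter on low counts 2 chains were higher (Col12a1 and Col6a3) and 1 lower (Col15a1). Removing the length trend, and removing both length and GC trends, gave 0 higher and 1 lower (Col1a2, -0.29 and -0.26, edgeR adjusted p = 0.0305 and 0.0264). Leaving out 1 library gave 0 to 1 higher and 0 to 1 lower. The replicate numbers were not shown to pair the pools (correlation of same-number deviations -0.032 across genes, 2 pairs only). The replicate block gave 1 higher and 0 lower, and over all genes 1107 higher and 577 lower, against 684 and 202. With the length trend removed and the replicate block, 1 was higher (Col12a1) and 3 lower (Col1a1, Col1a2 and Col26a1). Over all genes, calls higher and lower were 300 and 109 by DESeq2, 421 and 96 by limma-voom, 493 and 105 with no robust option and 78 and 71 with the length trend removed. The type VI share differed by 0.353 points without division by length and by 0.195 points with the length of one transcript. Among the 22 genes named by rule, 7 chains changed sign under at least 1 alternative, and the cause was not tested. Over the fits that left out 1 library, the log2 fold change of Col4a1 lay between -0.20 and 0.060, Col6a1 between -0.034 and 0.050, Col9a1 between -0.048 and 0.069, Col3a1 between -0.088 and 0.079, Col13a1 between -0.11 and 0.13, Col4a2 between -0.18 and 0.16, and Col4a4 between -0.094 and 0.22. With the length trend removed, Col9a1 was -0.030 and Col4a4 -0.083. Adding the replicate block to that gave -0.029 and -0.095, and removing length and GC trends gave -0.024 and -0.082, with Col13a1 at 0.0003. Library-size scaling put Col3a1 at 0.023, Col13a1 at 0.026 and Col4a2 at 0.030. No filter gave Col13a1 0.0013 and Col4a2 0.0036, a mean of at least 1 CPM gave 0.0008 and 0.0034, and the replicate block gave Col13a1 0.0064. Protein-coding genes only gave Col3a1 0.0012, Col13a1 0.0031 and Col4a2 0.0078. Over all alternatives run, Col6a2 lay between -0.20 and -0.051, Col18a1 between -0.15 and -0.0041, Col26a1 between -0.43 and -0.24, Col8a2 between -0.46 and -0.29 and Col7a1 between 0.098 and 1.10. Depth limits the tested chains below 3 CPM, whose intervals all reach beyond 1.5-fold.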
